A study of Mus musculus with 6 samples.

Results

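The 10 genes described here, Lhx8, Tlx2, Prrx1, Twist1, Twist2, Msx1, Msx2, Snai1, Snai2 and Foxp2, encode transcription factors of cranial and other mesenchyme. They were chosen from a comparison of the tumor cells with the other cells of these same 6 tumors, so that comparison is given below as a description with no test. They are 10 of the 16557 genes found in at least 1 of the 6 count tables. A table lists the genes found in at least 3 cells of its tumor, and it held 6, 5 and 9 of the members for the 3 MYC spinal tumors and 7, 8 and 8 for the 3 eRT (extracranial rhabdoid tumors). A member that a table did not list was counted as 0, although fewer than 3 cells may have held it.

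Single cells were sequenced from 3 MYC spinal tumors, called S1, S2 and S3 here, and 3 eRT, called E1, E2 and E3, each from a separate mouse. All mice were Smarcb1 fl/fl, with both copies of the gene for the SWI/SNF chromatin remodeler subunit Smarcb1 floxed, and carried an inducible creERT2. Cre was switched on in the embryo through the pregnant mother, who was given Tamoxifen (50 mg/kg, 1 intraperitoneal injection) on day 6.5 of gestation. The Cre was driven by the ubiquitous Rosa26 promoter in S1, S2, S3 and E1 and by Sox2 in E2 and E3, so subtype and mouse model are partly confounded. Mice bearing S1, S2 and S3 were 19, 26 and 17 weeks old. E1 grew in a gland of a mouse of 17 weeks by its label (the sources differ on this age), E2 in the jaw at 29 weeks and E3 in the shoulder at 22 weeks. Each library held the tumor cells together with the immune and other cells of the same tumor, and those other cells were the only comparison within a tumor. Clusters of the other cells that could be named were mostly of immune cells, so the comparison is largely not one with normal mesenchyme.

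Mesenchyme of the head comes largely from the neural crest and that of the limbs and trunk from mesoderm, and both lay down connective tissue, cartilage and bone. Twist1 and Twist2 are basic helix-loop-helix factors that bind E-box sequences as dimers with E proteins, and Snai1 and Snai2 are zinc finger repressors that bind a related sequence and silence epithelial genes in epithelial-mesenchymal transition (EMT). Prrx1, Msx1, Msx2, Lhx8 and Tlx2 are homeodomain factors and Foxp2 is a forkhead repressor, most of them known for patterning jaw, palate, tooth, limb or neural tissue.

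The deposited tables held 22681 cells, of which 22163 were kept for having 200 or more genes and no more than 25% mitochondrial UMIs (unique molecular identifiers, counted once for each captured transcript), with 3841706 to 26184224 UMIs per tumor. Tumor cells were the cells of clusters in which Smarcb1, the deleted gene, reached under 0.25 of the level that immune-like cells would give. Tumor cells numbered 96, 16 and 1399 in S1, S2 and S3 and 68, 202 and 621 in E1, E2 and E3, 2402 in all. Levels are in CPM, a gene's UMIs over all UMIs of the pooled cells of a tumor times 1000000. Smarcb1 was at 0, 0 and 1.61 CPM in tumor cells of S1, S2 and S3, and at 6.41, 3.21 and 2.01 CPM in those of E1, E2 and E3. Elsewhere it lay between 27.1 and 60.05 CPM, a difference that the choice of clusters fixed. The 16 tumor cells of S2 held 45766 UMIs, so a count of 0 there allows up to 65.6 CPM at 3 counts, against 0.403 to 6.41 CPM in the other 5 tumors. Values of that tumor are therefore given but weigh little.

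The tumor clusters also carried fibroblast markers. The 6 markers Col1a1, Col1a2, Col3a1, Dcn, Lum and Pdgfra (Dpt was in no table) summed to 622 to 3037 CPM in tumor cells and to 2.33 to 201 CPM in other cells, and 3 to 6 of the 6 were higher in tumor cells in each tumor. Lum was at 0 in the tumor cells of S2 and S3. The part of fibroblasts in the levels below was not tested. The 9 macrophage and monocyte markers summed to 142 to 1515 CPM in tumor cells and to 5794 to 37200 CPM in other cells.

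The stretches of sequence before the starts of Prrx1, Lhx8 and Twist1 are shown because these are the 3 members that were higher in tumor cells in at least 3 tumors. In GRCm38, Prrx1 lies on the minus strand of chromosome 1 (163245119 to 163313710), Lhx8 on the minus strand of chromosome 3 (154306294 to 154330659) and Twist1 on the plus strand of chromosome 12 (33957671 to 33959829). Each stretch is taken from the RefSeq promoter table of GRCm38.p6, which matched 7 of the 10 members, and is cut before the earlier start of RefSeq and GENCODE. Tlx2, Snai2 and Foxp2 had no entry. They run 5′ to 3′ on the strand of the gene, at chr1:163313711-163313900, chr3:154330660-154330810 and chr12:33957421-33957670, with E-boxes (CANNTG) and the homeodomain core TAATTA in capitals.
Prrx1: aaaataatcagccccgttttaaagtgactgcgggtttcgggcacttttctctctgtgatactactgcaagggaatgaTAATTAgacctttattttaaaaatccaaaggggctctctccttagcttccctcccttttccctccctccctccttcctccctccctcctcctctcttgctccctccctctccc
Lhx8: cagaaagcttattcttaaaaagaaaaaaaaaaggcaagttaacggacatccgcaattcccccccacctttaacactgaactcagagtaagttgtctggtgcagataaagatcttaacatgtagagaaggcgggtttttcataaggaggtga
Twist1: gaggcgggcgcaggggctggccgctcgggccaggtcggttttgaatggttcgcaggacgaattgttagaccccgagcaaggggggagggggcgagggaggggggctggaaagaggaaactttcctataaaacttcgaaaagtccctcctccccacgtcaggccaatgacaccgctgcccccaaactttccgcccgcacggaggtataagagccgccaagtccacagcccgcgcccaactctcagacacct
No E-box was found in these 3 stretches, on either strand, and so none of the Snail form CAGGTG, whose reverse complement CACCTG was also searched. Among all 32851 promoters of the table, windows of the same place and length held an E-box in 57.3% for the 190 bases of Prrx1, 49.5% for the 151 bases of Lhx8 and 66.2% for the 250 bases of Twist1. TAATTA occurred 1 time before Prrx1, and 4.02% of all windows of that place and length held it. These matches describe letters in short windows only.

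Prrx1, a paired-related homeobox factor of limb bud and craniofacial mesenchyme, had UMIs in the tumor cells of all 6 tumors. It had 7 UMIs in 3 of 96 tumor cells of S1, 27 UMIs in 10 of 16 cells of S2 and 1402 UMIs in 752 of 1399 cells of S3. In the eRT it had 251 UMIs in 61 of 68 cells of E1, 307 UMIs in 81 of 202 cells of E2 and 2034 UMIs in 535 of 621 cells of E3. In CPM S1 was lowest and S3 next, and the exact 95% Poisson intervals of E2, E1 and S2 overlapped, as did those of S2 and E3. S1, S2 and S3 had 12.9 CPM (interval 5.17 to 26.5), 590.0 CPM (389 to 858) and 188 CPM (178 to 198). E1, E2 and E3 had 536 CPM (472 to 607), 493 CPM (439 to 551) and 682 CPM (652 to 712). Non-tumor cells held 0, 0, 14.4, 1.47, 3.69 and 33.0 CPM in that order, below the tumor cells in each tumor. A Prrx1 UMI was found in 3.13%, 62.5%, 53.8%, 89.7%, 40.1% and 86.2% of tumor cells of S1 to S3 and E1 to E3. Immune-like cells had shares of 0%, 0%, 1.88%, 0.861%, 0.267% and 0.587% in the same order. The remaining cells, in neither class, had 0%, 0%, 5.40%, 0.881%, 0.697% and 9.11%. Tumor cells were deeper, with medians of 2055.5 to 6141.5 UMIs against 843 to 5372 in immune-like cells. After each cell was thinned to 1000 UMIs, 1.05%, 46.2%, 16.6%, 45.6%, 23.8% and 44.9% of tumor cells and at most 0.574% of immune-like cells kept a Prrx1 UMI. Thinning left out at most 21 tumor cells of a tumor, and of immune-like cells 1329 of 2163 in S2 and 0 to 335 in the other tumors. These intervals and limits cover counting error only.

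**Figure D1:**
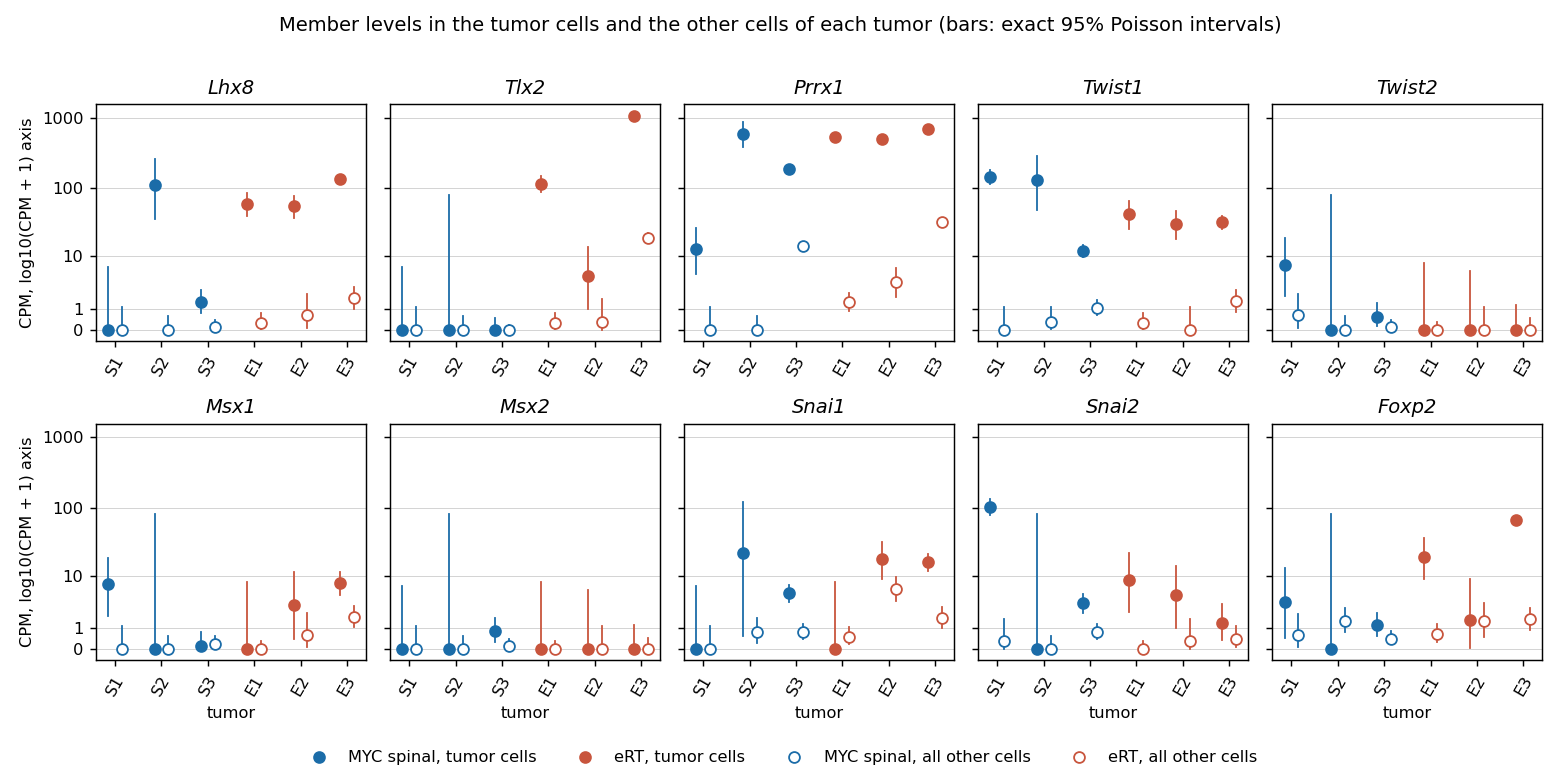
Levels of the 10 members in CPM, on a log10(CPM + 1) axis, in the tumor cells (filled) and all other cells (open) of each of the 6 tumors, with exact 95% Poisson intervals as bars. Prrx1 is at 12.9 to 682 CPM in tumor cells, Tlx2 reaches 1042 CPM in E3, and Twist2, Msx1 and Msx2 stay under 8 CPM.

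Lhx8, a LIM-homeodomain factor of tooth and palate mesenchyme and of basal forebrain neurons, was found in the tumor cells of 5 tumors. It was not listed for S1, and had 5 UMIs in 3 cells of S2 and 11 UMIs in 9 cells of S3. In the eRT it had 28 UMIs in 10 cells of E1, 34 UMIs in 25 cells of E2 and 397 UMIs in 252 cells of E3. Levels by tumor were 0, 109, 1.48, 59.8, 54.6 and 133 CPM from S1 to E3. S1 and S3 lay below every eRT, and S2, with 16 tumor cells, lay among them. The other cells held 0, 0, 0.107, 0.245, 0.616 and 1.79 CPM. At 1000 UMIs per cell, 13.2% of the tumor cells of E3 and 0.0791% of its immune-like cells kept an Lhx8 UMI. Of all Lhx8 UMIs, 95.8% lay in tumor cells, and 83.6% of the UMIs in tumor cells came from E3.

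Tlx2, a homeobox factor known from autonomic and enteric neurons of neural crest origin, ranged from 0 to 1042 CPM between the tumor cells of the 6 tumors. It was listed for none of the 3 MYC spinal tumors. A true count of 0 in tumor cells would allow up to 5.51, 65.6 and 0.403 CPM there, but fewer than 3 cells of each tumor may have held Tlx2. It had 54 UMIs in 11 of 68 tumor cells of E1, 3 UMIs in 2 of 202 cells of E2 and 3111 UMIs in 537 of 621 cells of E3. The levels in the eRT were 115 CPM (86.7 to 151), 4.81 CPM (0.993 to 14.1) and 1042 CPM (1006 to 1080), with no overlap of the intervals. The other cells of the eRT held 0.245, 0.308 and 19.2 CPM. In E3 the immune-like cells had 6.33 CPM, and 1.06% of them had a Tlx2 UMI against 86.5% of tumor cells. After thinning to 1000 UMIs these shares were 0.435% and 59.1%. Tumor cells of E3 held 98.2% of the Tlx2 UMIs of all tumor cells, so its total rests on 1 tumor.

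Twist1, a helix-loop-helix factor needed in cranial mesenchyme, had 78, 6 and 90 UMIs in 46, 4 and 87 tumor cells of S1, S2 and S3. In E1, E2 and E3 it had 20, 19 and 96 UMIs in 17, 15 and 85 cells. Levels for S1, S2 and S3 were 143 CPM (interval 113 to 179), 131 CPM (48.1 to 285) and 12.1 CPM (9.71 to 14.9). Those of E1, E2 and E3 were 42.7 CPM (26.1 to 66.0), 30.5 CPM (18.4 to 47.6) and 32.2 CPM (26.1 to 39.3). The intervals of the 3 eRT overlapped, and that of S1 lay above and that of S3 below each of them. In other cells Twist1 was at 0 to 1.53 CPM, and its share in immune-like cells was at most 0.287% against 6.22 to 47.9% in tumor cells. Its relative Twist2 had 4 UMIs in each of S1 and S3, at 7.35 and 0.537 CPM, and none in the other 4 tumors.

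Among the Snail repressors, Snai2 stood out in 1 tumor. It had 56 UMIs in 36 of the 96 tumor cells of S1, at 103 CPM (77.7 to 134), against 0 and 3.49 CPM in S2 and S3 and 8.55, 4.81 and 1.34 CPM in the eRT. The other cells held at most 0.747 CPM of Snai2. Snai1 was not listed for S1 and had no UMI in the tumor cells of E1. In those of S2, S3, E2 and E3 it had 1, 39, 11 and 48 UMIs, at 21.9, 5.23, 17.7 and 16.1 CPM. In E2 the other cells reached 6.16 CPM of Snai1, and in its immune-like cells 4.25 CPM, so that 11 of its 31 UMIs were in tumor cells. S1 thus held the highest Snai2 and no counted Snai1 UMI. A true count of 0 would allow up to 5.51 CPM, but fewer than 3 cells of S1 may have held Snai1.

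Foxp2, a forkhead repressor known for its part in the circuits of speech and song, had 2, 0 and 9 UMIs in the tumor cells of S1, S2 and S3, at 3.68, 0 and 1.21 CPM. In E1, E2 and E3 it had 9, 1 and 196 UMIs, at 19.2, 1.61 and 65.7 CPM. The intervals of E1 (8.79 to 36.5) and E3 (56.8 to 75.5) did not overlap, and the other cells held 0.427 to 1.66 CPM. Like Tlx2, Foxp2 was therefore highest in E3, next in E1, and near the level of other cells in E2.

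Msx1 and Msx2, homeobox factors of tooth and skull known as targets of BMP signaling, were rare. Msx1 had 4, 1, 2 and 23 UMIs in the tumor cells of S1 and S3 and E2 and E3, at 7.35, 0.134, 3.21 and 7.71 CPM, and none in the other 2 tumors. The 23 UMIs of E3 were in 8 cells. Msx2 had 6 UMIs, each in a cell of its own in S3 (0.805 CPM), and was listed for no other tumor.

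On the log2 scale after adding 10 CPM to both levels, Prrx1 in tumor cells lay above the other cells by 1.19, 5.91, 3.02, 5.57, 5.20 and 4.01 in S1, S2 and S3 and E1, E2 and E3. Twist1 lay above by 3.94, 3.78, 0.996, 2.36, 2.02 and 1.87, and Lhx8 by 0, 3.58, 0.18, 2.77, 2.60 and 3.60, in the same order. The median of Lhx8 was 2.69, that of Prrx1 4.603 and that of Twist1 2.19. Tlx2 passed 1 in 2 tumors (3.61 in E1 and 5.17 in E3), as did Foxp2 (1.46 in E1 and 2.70 in E3) and Snai1 (1.56 in S2 and 1.15 in E3). Snai2 passed it in S1 alone (3.45), and Twist2, Msx1 and Msx2 in no tumor. In all, 3 of the 10 members were above 1 in at least 3 tumors, as were 6.8% of the 15024 genes with at least 10 UMIs. Of the members, 9 had that many UMIs and Msx2 with 8 did not. The median over those 9 members of the median difference was 0.43, against 0 over all 15024 genes. Since this comparison chose the members, nothing is read from these counts.

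**Figure D2:**
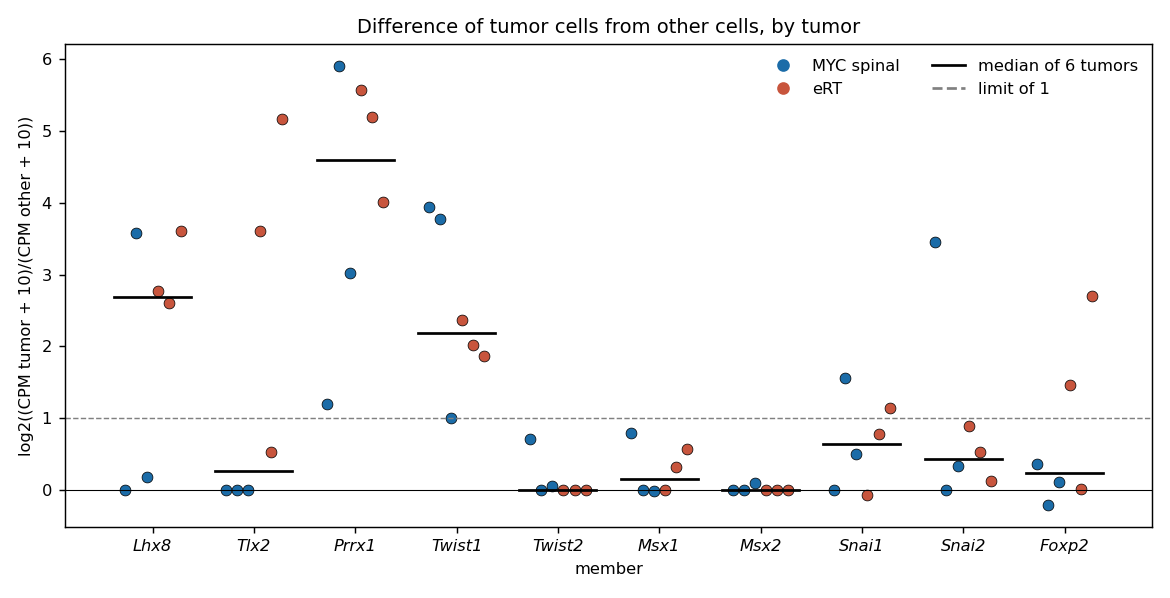
Difference of tumor from other cells, log2((CPM tumor + 10)/(CPM other + 10)), for each member in each of the 6 tumors (points), with the median (bar) and the limit of 1 (dashed). Prrx1 is above 1 in 6 tumors, Twist1 in 5 and Lhx8 in 4, while Twist2, Msx1 and Msx2 are above it in none.

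Some cells lay close to the rule for tumor cells. Just inside it, a subcluster of E3 (51 of its 55 cells) with raised Lyz2 and other myeloid RNA (6419 CPM of Lyz2) had Smarcb1 at 0.198 of expected. Its cells of E3 held 763 CPM of Tlx2, 514 CPM of Prrx1 and 172 CPM of Lhx8. Just outside lay a fibroblast-like cluster at 0.306 of expected, whose 75 cells of E3 held 892 CPM of Prrx1 and 285 CPM of Tlx2 but 12.7 CPM of Lhx8, with Msx1 and Snai1 at 55.2 CPM each. The tumor cells of E3 held 682 CPM of Prrx1, 1042 CPM of Tlx2, 133 CPM of Lhx8, 7.71 CPM of Msx1 and 16.1 CPM of Snai1. A subcluster of 154 cells of S3 at 0.337, with 3387 CPM of Lyz2, held 147 CPM of Prrx1. These cells outside the rule gave the other cells of E3 and S3 much of their Prrx1, 210 of 258 and 134 of 269 UMIs.

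To ask whether the members differ between the subtypes, UMIs were summed over the tumor cells of each tumor and fitted with edgeR's quasi-likelihood test across all genes. Only Lhx8, Prrx1 and Twist1 passed the filter on low counts. Of 5624 genes tested, 0 passed a Benjamini-Hochberg adjusted p of 0.05 (0%), 207 had an unadjusted p under 0.05, and DESeq2 called 23, none of them a member. Lhx8 was 4.22 ± 1.87 (SE) higher in eRT on the log2 scale (edgeR adjusted p = 0.9989), Prrx1 1.501 ± 1.06 higher (edgeR adjusted p = 0.9989) and Twist1 lower by a log2 change of -0.89 ± 0.80 (edgeR adjusted p = 0.9989). The group means were 36.9 ± 62.7 and 82.5 ± 43.9 CPM (SD, n = 3) for Lhx8, 264 ± 296 and 570.1 ± 98.9 CPM for Prrx1 and 95.5 ± 72.5 and 35.1 ± 6.64 CPM for Twist1, in MYC spinal and eRT tumor cells. The spread between tumors of a subtype exceeded the difference for Lhx8 and Twist1 in the MYC spinal group. With mouse model as a covariate, which rests the contrast on E1, Lhx8 was 3.34 ± 2.33 and Prrx1 1.12 ± 1.48 higher.

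Tlx2 did not pass the filter and was listed for none of the 3 MYC spinal tumors, where it was counted as 0. Its 3 eRT values of 115, 4.81 and 1042 CPM lay above these zeros. The members were chosen from tumor against other cells, where Tlx2 passed 1 in E1 and E3 alone. The order of the subtypes was thus partly set by that choice and by the zeros given to unlisted genes. The exact two-sided permutation test on log2(CPM + 10) gave p = 0.1, the smallest that 3 against 3 tumors allow. After adjustment over the 10 members tested the permutation p was 0.6667, and nothing is read from it. In the fit of every gene with at least 1 UMI, Tlx2 had an edgeR adjusted p of 0.271. Even a true zero of S2 would allow up to 65.6 CPM, above the value of E2. For Foxp2 the exact permutation p was 0.2 and for the other 8 members it was between 0.3 and 1, before adjustment.

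Within tumors the members varied between subclusters of tumor cells, which were formed without the members among the variable genes. In E3 the 7 subclusters of at least 10 cells held Tlx2 at 351 to 1222 CPM and Prrx1 at 50.1 to 850 CPM. The lowest values of both were in 11 cells with a median of 1494 UMIs. Foxp2 was at 33.5 CPM in the largest of them (194 cells), at 97.7 CPM in that of 162 cells and at 150 CPM in that of 144 cells, which were marked among others by Mmp9 and Ccl2, by Efemp1 and Col11a1, and by Gng8 and Hoxc9.

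In E1 Lhx8 and Tlx2 were split between 2 kinds of tumor cells that shared Prrx1. A subcluster of 12 of its cells, with Angptl7 and Ccl11 among its leading genes, held 25 UMIs of Lhx8 (181 CPM) and 50 of Tlx2 (362 CPM), while 36 cells with the claudins Cldn3, Cldn4 and Cldn7 among their leading genes held none of either, which allows up to 13.4 CPM. Prrx1 was at 609 and 561 CPM and Twist1 at 58.0 and 40.1 CPM in these 2 groups. Foxp2 had 9 UMIs (40.1 CPM) in the claudin group and none in the other. The epithelial markers were thus found beside Prrx1 in E1, whose tumor cells held 2085 CPM over the 6 epithelial markers against 16.9 to 415 CPM in the other 5 tumors.

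In E2, 33 cells of the subcluster it shared with E1 held 663 CPM of Prrx1, 99.96 CPM of Lhx8 and 13.6 CPM of Tlx2. A pair of larger groups of E2, of 69 and 63 cells, were shallow, with medians of 1362 and 1776 UMIs against 6087, and were led by ribosomal protein pseudogenes and by Ctla2a and Gap43 among others. They held 85.7 and 150 CPM of Prrx1, and their Lhx8 was at 19.0 and 0 CPM. In S3 Prrx1 was between 140.0 and 256 CPM in the 4 largest subclusters, and at 14.2 CPM in 95 cells led by Bex1 and Stmn2. In S1 Twist1 and Snai2 were at 136 CPM each in 19 cells and at 146 and 104 CPM in a group of 68.

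**Figure D3:**
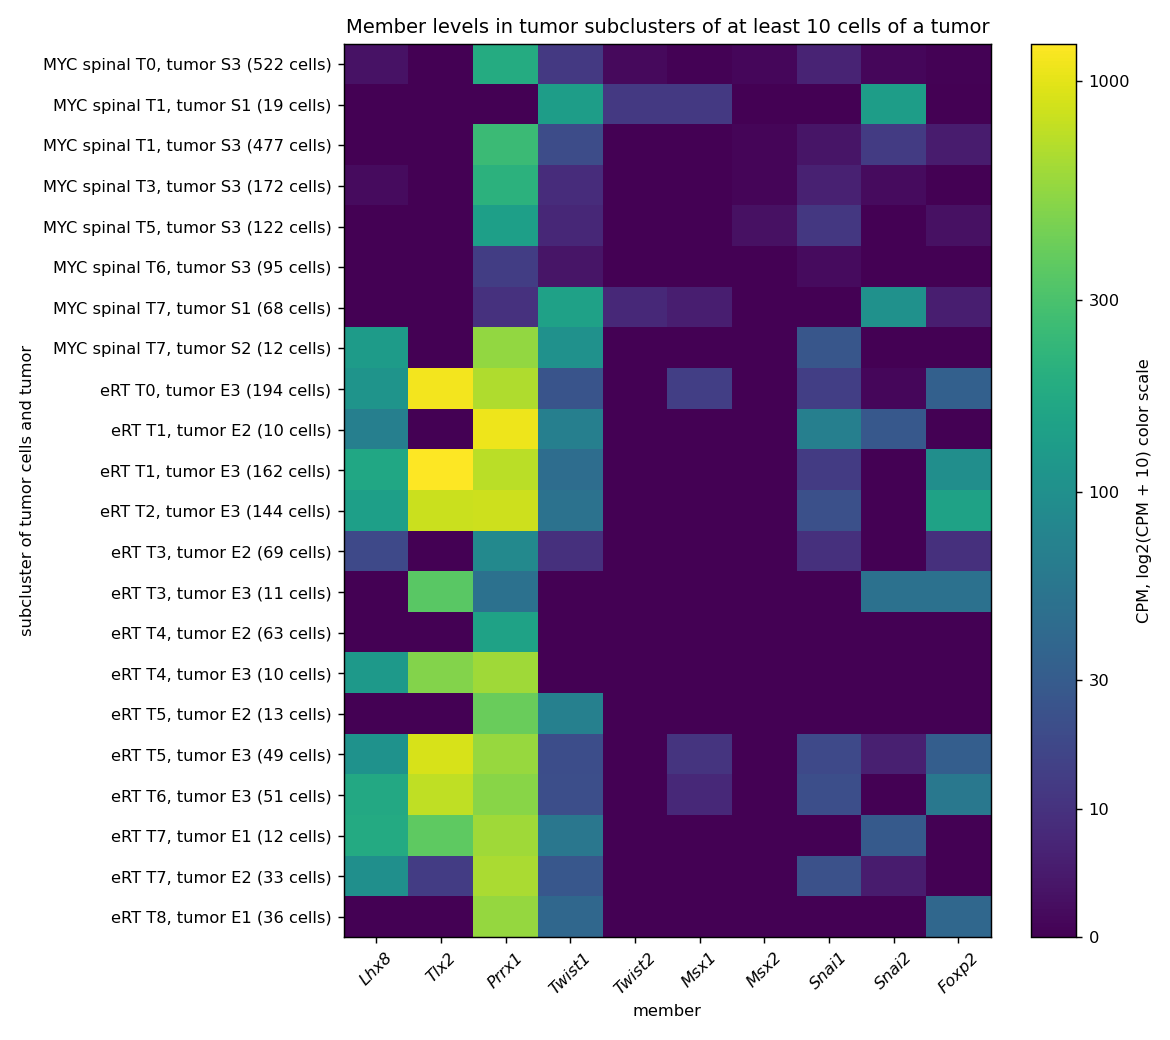
Levels of the 10 members (columns) in the subclusters of tumor cells with at least 10 cells of a tumor (rows, with the tumor and the number of cells), on a log2(CPM + 10) color scale. Tlx2 is high in the subclusters of E3 and in 1 of the 2 of E1, Prrx1 is at 50.1 to 1074 CPM in the rows of the eRT and Snai2 is at 136 and 104 CPM in those of S1.

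How often a tumor cell held several members differed between tumors. From S1 to E3, 71.9%, 68.8%, 57.8%, 89.7%, 43.6% and 96.8% of tumor cells had a UMI of at least 1 member, against 0.239 to 2.36% of immune-like cells. At least 2 were found in 21.9%, 37.5%, 8.01%, 44.1%, 17.3% and 87.8%, so in most tumor cells of E3 alone. In E3, Prrx1 was found in 88.6% of the 537 cells with a Tlx2 UMI and in 70.2% of the rest, whose median depth was 2217 against 4692 UMIs. Lhx8 was found in 42.5% and 28.6% of the same cells. In E2, Lhx8 was found in 28.4% of the 81 cells with a Prrx1 UMI and in 1.65% of the rest, with medians of 4479 and 1566 UMIs. In S1 Twist1 was found in 47.2% of the 36 cells with a Snai2 UMI and in 48.3% of the rest, at medians of 5702 and 5543 UMIs. Depth moved with most of these shares, and its part in them was not tested.

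To see whether the members follow the called cell cycle phase, tumor cells called S or G2M from Seurat's gene lists were compared with those called G1 within each of the 5 tumors that held at least 10 of each, which left out S2. The calls rest on these gene lists alone and were not checked with a gene outside them. Prrx1 was at 16.7, 182, 471, 452 and 659 CPM in S or G2M cells and at 10.96, 195, 569.9, 514 and 694 CPM in G1 cells of S1, S3, E1, E2 and E3. It was lower in the S or G2M cells of 4 of the 5 tumors, and the log2 change was -0.13 ± 0.12 (SE, edgeR adjusted p = 0.5581, tumor as a block). Twist1 was at 184, 11.8, 31.4, 51.8 and 25.5 CPM in S or G2M cells and at 123, 12.3, 48.6, 19.5 and 35.6 CPM in G1 cells, higher in 2 of 5 tumors, with a log2 change of 0.05 ± 0.23 (SE, edgeR adjusted p = 0.9378). Of 4162 genes tested, 212 passed (5.09%), of which neither member was one.

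Lhx8 and Tlx2 did not pass the filter of that fit. Lhx8 was at 25.1 and 23.5 CPM in the S or G2M cells of E1 and E2 against 77.7 and 70.6 CPM in G1 cells, from 4 and 5 against 24 and 29 UMIs, but at 136 against 131 CPM in E3. Tlx2 was at 18.9 against 165 CPM in E1, from 3 and 51 UMIs, and at 1024 against 1052 CPM in E3. In the fit of every gene with at least 1 UMI, Tlx2 had a log2 change of -0.56 (edgeR adjusted p = 0.3786) and Lhx8 one of -0.28 (edgeR adjusted p = 0.8216).

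**Figure D4:**
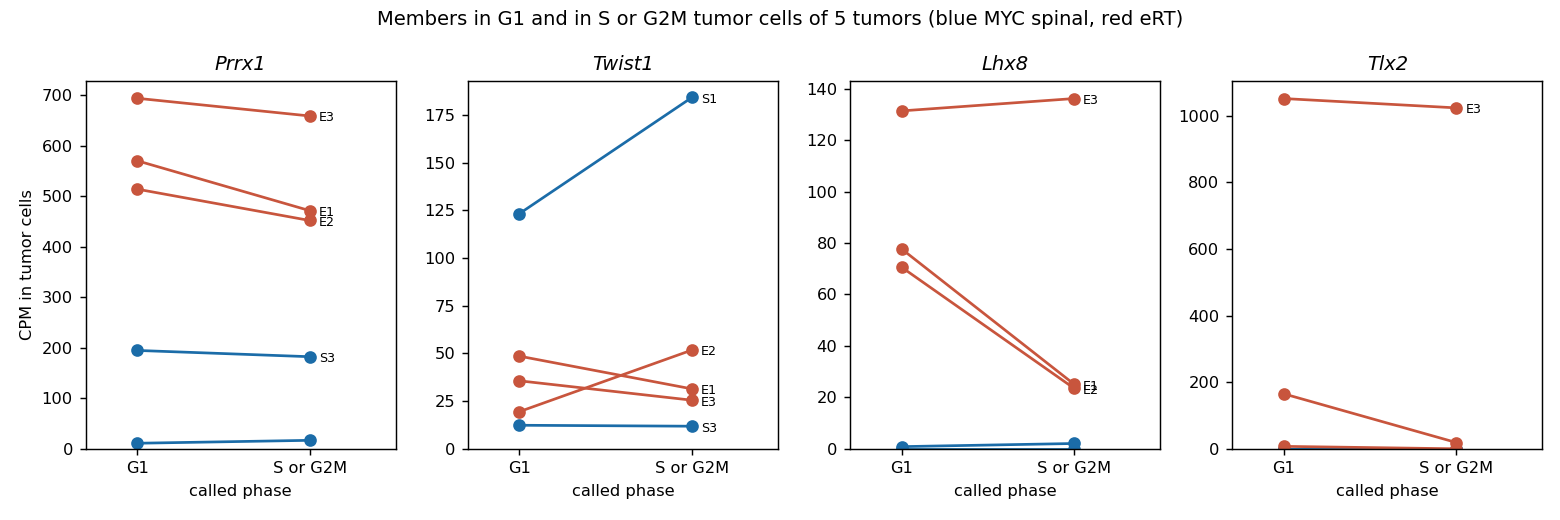
Levels in CPM of Prrx1, Twist1, Lhx8 and Tlx2 in tumor cells called G1 and S or G2M, with a line for each of the 5 tumors (blue MYC spinal, red eRT). Prrx1 is lower in the S or G2M cells of 4 of the 5 tumors (694 to 659 CPM in E3), and Lhx8 goes from 77.7 to 25.1 CPM in E1 and from 131 to 136 CPM in E3.

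Other genes of these programs were taken from lists. Beside each count of genes above the other cells below stands the 6.8% of all 15024 genes that were above in at least 3 tumors. The lists were chosen with earlier results of these data known, so nothing is read from these counts. Of 22 cranial and jaw mesenchyme factors, 14 were in a table and 11 had at least 10 UMIs, of which 3, Dlx2 and Hand2 among them, were above the other cells by more than 1 in at least 3 tumors and none was below. Hand2, a factor of the lower jaw and heart, was at 287, 0, 36.1, 0, 11.2 and 123 CPM in the tumor cells of S1, S2, S3, E1, E2 and E3. Pitx1, a factor of hindlimb and jaw, was found in S3 and E3 alone, at 139 and 39.2 CPM. The median difference of the 11 genes was 0.

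Of 21 limb and trunk mesenchyme factors, 16 had at least 10 UMIs. Of these, 5 (Tbx18, Shox2, Osr1, Nr2f2 and Meis2) were above by more than 1 in at least 3 tumors, beside 6.8% of all genes. None was below and the median was 0.34. Nr2f2, an orphan nuclear receptor, was above in all 6 tumors, at 12.8 to 312 CPM. Osr1 was highest in E2 (111 CPM) and S1 (91.9 CPM), and Meis2 in S1 (265 CPM). Of the skeletal lineage factors 1 of 6 (Mkx, a factor of tendon, at up to 104 CPM in S3) was above, with a median of 0.07. Runx2, needed for bone, was at 1.84 to 65.6 CPM in tumor cells and at 1.64 to 73.4 CPM in other cells, and Sp7 was found in S1 and S2 alone, at 14.7 and 87.4 CPM.

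Of the neural crest factors 1 of 6 was above in at least 3 tumors, with a median of 0. This was Zic1, at 428 CPM in S1 and 55.6 and 12.7 CPM in E1 and E3. Tfap2b was at 90.0 CPM in S1 and at 0.805 CPM or less in the other 5. Ets1 was at 6.41 to 87.4 CPM in tumor cells and at 7.04 to 188.9 CPM in other cells. It was below the other cells by more than 1 in 2 tumors and above them by that much in 0. These 3 had the highest mean CPM of the list in tumor cells, and each of the others found had a mean of 1.87 CPM or less. None of the 8 paralogs of the members with 10 UMIs was above in 3 tumors and their median was 0. Foxp1 was at 382, 0, 67.2, 233, 57.8 and 2.35 CPM, lowest in E3 among the 5 tumors other than S2. Foxp4 was at 6.42 to 31.2 CPM and Lhx9 was found in S3 alone, at 20.4 CPM.

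The E proteins that pair with Twist factors were present in the tumor cells of every tumor, Tcf3 at 38.5 to 62.5 CPM, Tcf4 at 21.4 to 186 CPM and Tcf12 at 45.2 to 87.4 CPM. The other cells held them too, at 21.5 to 55.5, 31.4 to 92.6 and 22.2 to 48.55 CPM. Tumor cells were above by more than 1 in 0, 2 and 2 tumors, in that order. Of the list of 5 with the Zeb repressors, Zeb1 was above in at least 3 tumors and Zeb2 below, where 7.01% of all genes were below in as many. Of 8 epithelial genes 2 (Epcam and Krt18) were above in at least 3 tumors, with Epcam at 1070.0 CPM, Cldn3 at 571 CPM and Cldn4 at 677 CPM in E1. In the other 5 tumors Epcam was at 0 to 29.4 CPM, and Cldn3 and Cldn4 were at 0 to 1.21 CPM. Of 3 mesenchymal EMT genes, Vim (1632 to 6722 CPM) and Cdh2 (0 to 65.6 CPM) were above and Fn1 below in at least 3 tumors. The other way, Fn1 was at 659 CPM in tumor cells and 109.5 CPM in other cells of S3, and Vim at 1714 and 2852 CPM in those of E1. Among 7 BMP and TGF-beta ligands Tgfb3 was above in 6 tumors (25.6 to 246 CPM) and Tgfb1 below in 4, and Bmp4, which acts before the Msx genes in tooth and skull, was at 235 and 156 CPM in S1 and E1 and at 8.02 CPM or less in the other 4. No gene of these lists passed either edgeR test.

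Over 18 pools (tumor, immune-like and remaining cells of each tumor), the genes whose log2(CPM + 10) followed the members most closely were found among genes with at least 100 UMIs. Pools of a tumor share a library, and most points are near 0, so Pearson's r is a description. Nearest to Prrx1 were Hspg2 (r = 0.976), Msln (r = 0.97) and Fbln2 (r = 0.968), the first and last of which encode matrix proteins. Nearest to Lhx8 were F2rl1 (r = 0.983), Ang2 (r = 0.967) and Medag (r = 0.955), and to Twist1 Nfatc4 (r = 0.988), Tcaf1 (r = 0.978) and Ptk7 (r = 0.969). Nearest to Tlx2 were Slc39a2 (r = 0.991), Meox1, a homeobox factor of somites (r = 0.986), and Hectd2 (r = 0.962). Foxp2 had Hectd2 (r = 0.972), Plce1 (r = 0.971) and Tlx2 itself (r = 0.962) nearest to it. Snai2 had Agtr2 (r = 0.974), Lpar4 (r = 0.973) and Gsta4 (r = 0.97), and Snai1 had Npy (r = 0.929), Plat (r = 0.886) and March11 (r = 0.885). Between members, r was 0.887 for Lhx8 and Prrx1, 0.661 for Twist1 and Snai2, and -0.142 for Snai1 and Snai2.

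Gm26523 lies within an intron of Prrx1 on the same strand, touches no exon of it and is in a table. The antisense genes Gm20471 (over an exon of Prrx1) and Gm29100 (over an exon of Twist2) are in no table. Sharing of reads was not tested. No gene of the GENCODE annotation overlaps Lhx8, Tlx2, Twist1, Msx1, Msx2, Snai1 or Snai2. Tlx2 lies on the minus strand of chromosome 6 (83068324 to 83070293), and Foxp2 on the plus strand of the same chromosome (14901349 to 15441977). Msx1 lies on chromosome 5 (37820485 to 37824583, minus), Msx2 on 13 (53466884 to 53473074, minus), Snai1 on 2 (167538195 to 167542814, plus), Snai2 on 16 (14705852 to 14709385, plus) and Twist2 on 1 (91801461 to 91848028, plus).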

How the data were processed

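Cells were sorted as viable by 7-AAD and captured with the 10x Genomics 3′ kit. The authors aligned reads to mm10 with Cell Ranger 2.0.2 and deposited 1 table of raw UMI counts per tumor, with genes of at least 3 cells. Cells are numbered, so barcodes shared between libraries could not be counted, and no 2 cells of different tumors had identical counts. No per-sample column was left unused. The members and lists were chosen with earlier results of these data known.

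Integration within each subtype used Seurat 5.3.0 (2000 variable genes without the members, the lists and Smarcb1, 30 dimensions, resolution 0.8). A cluster was named from at least 3 markers. Tumor clusters had Smarcb1 under 0.25 of expected with at least 10 UMIs expected and no immune name. Tumor cells were clustered again, and subclusters at 0.25 or more were returned, a step added after 228 cells of S2 with Smarcb1 at 1.47 of expected had been placed among tumor cells. Scrublet (scanpy 1.11.5) marked 20 cells (0.0902%) and so did not work here. Doublets were therefore kept.

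UMIs were summed per tumor. Tests were edgeR 4.0.16's quasi-likelihood test with TMM factors, filterByExpr and Benjamini-Hochberg adjustment at 0.05, run also on simulated counts. The spread of the simulated counts was set and not taken from these tumors, so nothing is read from them. DESeq2 1.42.0 was an alternative. The SE is the log2 change over the square root of F. Intervals are exact at 95%. Named are the members, the 3 genes of each list with the highest mean CPM over tumor cells and any that passed a test, and the 3 genes most like each member with at least 50 UMIs in tumor cells. Some genes of the lists are not reported here. Genes past a limit in a list, genes leading a subcluster and overlapping genes were named after their values were seen. Levels in tumors called S1 to S3 and E1 to E3 are those of replicates 1 to 3 of each subtype. Kept UMIs per tumor ranged from 3841706 to 26184224. Other alternatives were other cell filters, resolutions, Smarcb1 limits, clustering of each tumor alone, pseudocounts, comparison groups and tumors left out. Coordinates are from GENCODE M21.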

Additional observations from a re-analysis of the deposited data

How the results depend on the processing

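With a pseudocount of 1 CPM in place of 10, 8 members were above the other cells by more than 1 in at least 3 tumors, as were 16.5% of all genes. Under the other alternatives 3 or 4 were, and 3 whichever tumor was left out. In eRT against MYC spinal tumor cells, DESeq2 called 23 genes and every other alternative 0, also with any tumor left out. Twist1 turned to a log2 change of 0.13 (edgeR adjusted p = 0.9998) without S1, and its range with 1 tumor left out was -1.56 to 0.13. That of Lhx8 was 2.03 (without S3) to 6.28 (without S2), with 2.41 without S1, and that of Prrx1 was 0.90 (without S1) to 2.71 (without S2). In cycling against other tumor cells, 497 genes were called with every gene of at least 1 UMI. Leaving out 1 tumor gave 66 to 313 calls, with 66 without S3 and 85 without E3. Twist1 turned to -0.11 without S1, -0.09 without E2 (up to 0.29 with 1 tumor left out) and -0.075 for G2M against G1 only (edgeR adjusted p from 0.8716 to 0.9772). Both kinds of cell come from the same animal, so tumor was a block. Without that replicate block 28 genes were called, and no member was called with or without it. For eRT against MYC spinal, no paired analysis was possible because the tumors of the subtypes come from different mice. Clustered on its own, S2 gave no cluster that met the rule for tumor cells, so that alternative rests on 5 tumors. A fibroblast-named cluster of 14 cells of S2 had 0 Smarcb1 UMIs. Only 0.85 were expected there, under the minimum of 10 of the rule, so it could not be called. Leaving out subclusters with over 1000 CPM of Lyz2, and using the first Smarcb1 rule alone, were alternatives chosen after seeing the data, and neither gave a call of a member. The causes were not tested. The 16 tumor cells of S2 limit what could be seen there, and 3 tumors per subtype limit every comparison of subtypes.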
